A study of Caenorhabditis elegans with 3 samples.

Results

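The annotated biotype of unclassified noncoding RNA gathers worm genes outside the listed short RNA families, and 288 of the 1468 DRAP-1 peaks (19.6%) had their summit nearest, within 500 bp, to the 5′ end of one. The DR1-associated protein 1 family, to which worm DRAP-1 belongs, gives the alpha subunit of negative cofactor 2. The worms were strain OP700, in which the transgene wgIs700 carries drap-1 fused to TY1 EGFP 3xFLAG at its C terminus together with unc-119(+), in animals with the unc-119 (tm4063) allele. All samples were mixed-stage embryos of pooled sex, obtained by egg bleaching with a labelled age of 3 hours, so the signal is a mean over whole embryos, and the labels name no promoter or cell type for the transgene. Chromatin was precipitated with an antibody against GFP per the sample descriptions, although the antibody label names drap-1, and sequenced (ChIP-seq). The 3 samples are biological replicates 2, 3 and 4 of 1 group with no other group to compare, and whether they came from separate cultures is not stated. The authors deposited a list of 30000 candidates for each replicate, another 30000 called on the reads of all replicates together, and the 1468 peaks that passed a threshold on the irreproducible discovery rate (IDR), a measure of how well ranks repeat between replicates. For each region the lists give a summit and a signal value, both the authors' own. Read counts are not among the values, and the depth is therefore unknown.

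The 288 peaks were chosen by position and by signal: their summit is nearest, within 500 bp, to the annotated 5′ end of a gene of biotype ncRNA among all gene classes, and they are IDR peaks. The IDR peaks are the 1468 regions of highest signal in the pooled list (4.89% of its 30000 regions), so the signal and the replicate ranks of these peaks describe the choice and are given with no test. Another 2510 pooled candidates met the same rule of position without being IDR peaks, so 10.3% of the 2798 candidates of the class were IDR peaks. The peaks lay at 278 distinct genes, 10 of which had 2 or more peaks, and for 2 peaks a gene of another class was equally near. These 278 genes are 3.58% of the 7764 genes of this biotype, which are mostly short, with a median annotated length of 140 bp. An IDR summit of any assignment lay within 500 bp of 564 of them (7.26%). The products of these genes are listed in RefSeq as unclassified noncoding RNA. The same biotype also holds a few structural RNAs with known roles, such as the RNA subunits of RNase P, RNase MRP and the signal recognition particle.

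Negative cofactor 2 is a pair of histone-fold proteins, DR1 and DRAP1, that binds the TATA-binding protein on DNA. It is known for blocking entry of general transcription factors at RNA polymerase II promoters, and it has also been found to affect transcription by RNA polymerase III. The TATA-binding protein serves both polymerases. RNA polymerase III makes transfer RNAs (tRNAs) from promoters inside the gene, with an A box and a B box, and makes other short RNAs, such as those of RNase P and RNase MRP, largely from elements upstream of the gene, among them a TATA box.

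Sequence around the summits is shown first for 8 of the strongest peaks, because they carry the words and neighbours that the results turn on. Each line holds the summit and 50 bases on each side of it, read from the RefSeq assembly WBcel235 that ce11 names and written 5′ to 3′ on the strand of the noncoding gene. Capitals mark the short words that were searched for, or their reverse complements. The TATA box was sought as TATAAA. The B box of tRNA genes was sought as GGTTCGA, and the variant GGTTCAA was added after the sequences had been seen. A repeat of GA was sought as GAGAGA and the GC box as GGGCGG. A run of T, which can end transcripts of RNA polymerase III, was sought as TTTTTT. A repeat of AC was sought as ACACAC, a word also chosen after the sequences had been seen. Different words can overlap in 1 run of capitals. The windows of F36H1.17 (chrIV:11026156-11026256, minus strand) and C14F11.14 (chrX:6207812-6207912, plus strand), the strongest peaks of the class, each hold a B box word in the direction of the gene.
F36H1.17: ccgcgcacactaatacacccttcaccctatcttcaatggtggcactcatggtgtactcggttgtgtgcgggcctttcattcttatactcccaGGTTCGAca
C14F11.14: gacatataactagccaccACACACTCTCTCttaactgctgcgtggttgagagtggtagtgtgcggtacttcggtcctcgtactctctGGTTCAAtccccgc
At T23F1.8 (chrV:15465182-15465282, plus strand) and C04A2.11 (chrII:6853226-6853326, minus strand) the word reads on the opposite strand, where an annotated tRNA gene lies.
T23F1.8: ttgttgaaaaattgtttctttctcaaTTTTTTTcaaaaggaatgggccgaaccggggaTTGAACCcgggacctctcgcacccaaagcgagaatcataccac
C04A2.11: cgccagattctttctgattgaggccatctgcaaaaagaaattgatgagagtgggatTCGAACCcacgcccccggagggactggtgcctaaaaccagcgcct
At mrpr-1 (chrII:7200203-7200303, plus strand), the RNA of RNase MRP, the window opens with a TATA box word whose first base lies 30 bases upstream of the gene. The window of srpr-2.2 (chrIII:5031653-5031753, minus strand), a signal recognition particle RNA gene, holds none of the words.
mrpr-1: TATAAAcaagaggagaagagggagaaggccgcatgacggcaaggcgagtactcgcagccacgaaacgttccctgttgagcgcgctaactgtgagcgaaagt
srpr-2.2: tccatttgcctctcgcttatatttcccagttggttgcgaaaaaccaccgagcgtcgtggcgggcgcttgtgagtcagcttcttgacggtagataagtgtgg
T13H2.9 (chrX:4606421-4606521, plus strand) shows the repeats of GA and of AC that recur at other peaks of the class. T24B8.22 (chrII:9060459-9060559, plus strand) shows that of AC only.
T13H2.9: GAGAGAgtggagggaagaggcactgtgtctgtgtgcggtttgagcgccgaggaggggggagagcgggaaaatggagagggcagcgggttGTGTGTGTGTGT
T24B8.22: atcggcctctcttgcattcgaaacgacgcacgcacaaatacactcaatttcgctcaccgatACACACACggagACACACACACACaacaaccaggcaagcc

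The signal of the 288 peaks ran from 126.9 to 895.6 with a median of 176.4, beside 174.1 for all IDR peaks and 51.63 for the 2510 other candidates of the class. Of the 50 strongest IDR peaks 7 belonged to this class, and of the 100 strongest 14. Both counts are below the share of the class among all IDR peaks, which was 19.6%. At the threshold, the lowest peaks were at ZK617.11 and K06A5.10 (127.2 each) and C16C2.10 (126.9), while the highest candidates left out were at F54E4.15 and F28B4.7 (126.6 each) and C05D12.8 (126.4).

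The strongest peak of the class lay 13 bp inside the 89 bp gene F36H1.17, on chromosome IV in a stretch outside coding genes that also holds the microRNA gene mir-51, and had a signal of 895.6. It ranked 16 in replicate 2, 9 in replicate 3 and 13 in replicate 4, and so was among the strongest regions in all of them. The next, at the 147 bp gene C14F11.14 on X, had a signal of 776.1 and ranks of 26, 18 and 15. It lay 27 bp inside that gene and 175 bp upstream of the coding gene T13C5.6, which points the other way. The peak at T28D6.15, in an intron of the tubulin gene tba-7 and on its strand, lay 311 bp downstream of the tba-7 5′ end. It had a signal of 608.5 and ranked 54, 43 and 44. The peak at the 62 bp gene T27A3.12 on chromosome I had a signal of 593.9 and ranked 56, 71 and 38. The 5′ end of another short RNA gene, T27A3.9, lay within 500 bp of its summit.

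These 4 genes are named together because they share a word, and they were picked after the sequences had been seen. Each holds GGTTCGA or GGTTCAA on its own strand, starting at base 56 of F36H1.17, 65 of C14F11.14, 59 of T28D6.15 and 53 of T27A3.12, counted from 1 at the 5′ end. None of them overlaps an annotated tRNA gene. Their class ranks by signal were 1, 2, 5 and 6. Rank 3 was the peak at rpr-1, a gene that holds neither word, and rank 4 that at T23F1.8, which overlaps a tRNA gene. The search covered genes of the biotype up to 300 bp long without a tRNA gene over them. Among these, 9 of 232 genes with a peak held a word (3.88%, exact 95% interval 1.79 to 7.24). The 9 include the 4 genes above, which had been picked for the word, so this share is raised by that choice. A word was held by 26 of 1998 genes of the other candidates (1.30%) and 109 of 7067 annotated genes (1.54%). The other 5 are all on X. They are T22B2.12 (signal 267.0; ranks 672, 313 and 244 in replicates 2, 3 and 4), ZK816.9 (264.0; 652, 210 and 359), C18B12.9 (239.9; 627, 338 and 556), C47D2.4 (147.7; 1716, 1133 and 957) and T14G8.5 (136.2; 2497, 2571 and 880). At T14G8.5 the summit lay 312 bp downstream of the 5′ end, beyond the 139 bp gene that holds the word. The search inside the genes was set up after the sequences had been seen, so the counts are a description with no test. A match of 7 letters is not shown to be a working B box.

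Locus names are carried by 14 genes of the biotype, of which 11 had a pooled candidate within 500 bp and 7 had an IDR peak. Among all 7764 genes of the biotype, 7.26% had an IDR summit within 500 bp, and the share with a pooled candidate was not counted. The RNA subunit of RNase P, the enzyme that trims the 5′ ends of tRNAs, is encoded by rpr-1 (chrI:13463955-13464207). Its peak had a signal of 650.1, ranked 23, 53 and 41 in replicates 2, 3 and 4, and lay 14 bp upstream of the gene, in an intron of ints-8 on the opposite strand. The RNA subunit of RNase MRP, a relative of RNase P that processes ribosomal RNA, is encoded by mrpr-1 (chrII:7200233-7200418). Its peak had a signal of 510.2 and ranked 83, 104 and 50, with the summit 20 bp inside the gene and 296 bp upstream of the coding gene pcrg-1. Both peaks were within the 104 highest regions of every replicate.

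The RNA of the signal recognition particle, which brings ribosomes to the endoplasmic reticulum, is encoded by 5 srpr genes here, of which 4 had peaks. The strongest was at srpr-2.2, antisense in an intron of the kinesin gene klp-6, with a signal of 425.3, ranks of 96, 137 and 371 and a summit 5 bp inside the gene. At srpr-1.2 the stronger of 2 peaks had a signal of 218.2 and ranks of 358, 417 and 1213, and at srpr-3 the signal was 149.7 with ranks of 1210, 2633 and 1209. At srpr-1.1 the stronger of 2 peaks (209.2) ranked 288 in replicate 3 and 368 in replicate 4, and was not found in replicate 2. Its summit lay 441 bp downstream of the 5′ end, beyond the 3′ end of the gene and in a coding exon. The srpr peaks thus spread from the upper part of the list to near its threshold, and no candidate lay within 500 bp of srpr-2.1. Near-identical copies limit the reading of this family, since the summit window of the weaker srpr-1.1 peak (signal 138.0) occurs 2 times in the genome, as that of no other peak of the class does. The long noncoding RNA gene tts-2 had a peak of signal 201.3, 288 bp upstream, which ranked 905, 478 and 947. Candidates below the IDR threshold lay at lfor-1 (98.0), tts-1 (70.6), lfor-2 (50.9) and linc-171 (33.7), and none lay within 500 bp of yrn-1 or rncs-1.

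**Figure D1:**
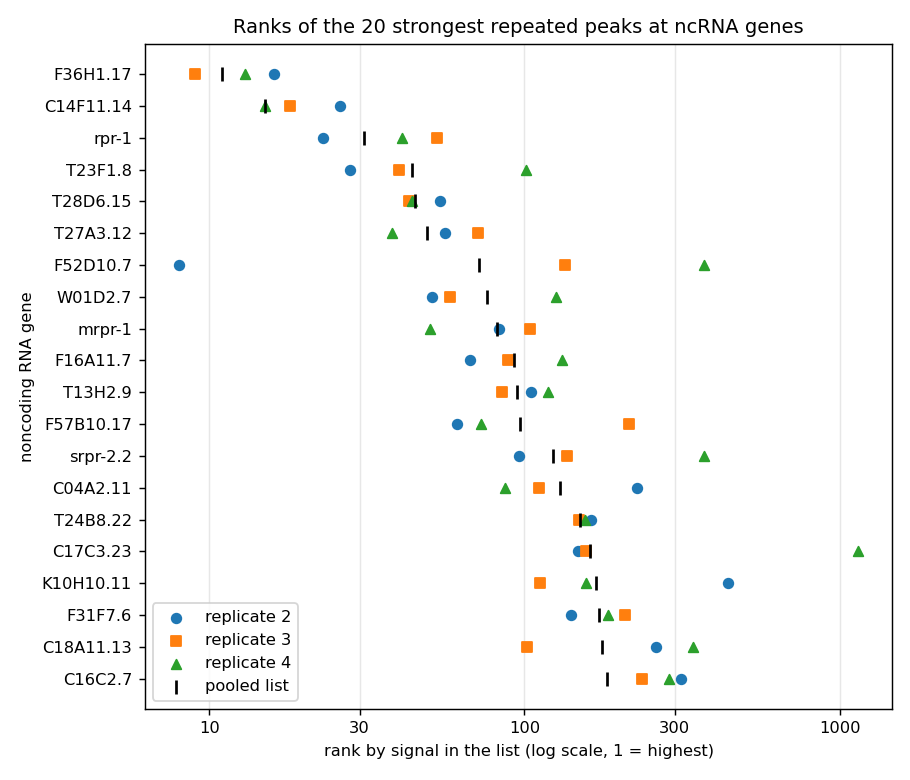
Ranks by signal (log scale, 1 is the highest of 30000 regions) in replicates 2, 3 and 4 and in the pooled list, for the 20 strongest peaks at noncoding RNA genes that were found among the 1468 highest regions of every replicate. F36H1.17 stays between ranks 9 and 16, while F52D10.7 runs from rank 8 in replicate 2 to rank 372 in replicate 4, and C17C3.23 from 148 to 1148.

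The plot of ranks shows how far the replicates differ at single genes. At F52D10.7 on X, 514 bp upstream of the 14-3-3 gene ftt-2, the peak (signal 529.3) ranked 8 in replicate 2, 135 in replicate 3 and 372 in replicate 4. At C17C3.23, which overlaps the spliced leader RNA gene sls-2.2 on the opposite strand, the peak (365.8) ranked 148, 157 and 1148. Most others held closer ranks, such as T24B8.22 with 163, 149 and 156 and W01D2.7, 317 bp upstream of the coding gene W01D2.3, with 51, 58 and 126. Strong peaks were not always found everywhere: Y71H9A.9 (367.5), between its own gene and sto-4, had no summit within 100 bp in replicate 2, and F13D11.9 (362.5) had none in replicate 3.

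Across the class, the 1468 highest regions of each replicate held 207 of the 288 peaks in replicate 2 (71.9%), 204 in replicate 3 (70.8%) and 190 in replicate 4 (66.0%). A peak counted as found when a summit lay within 100 bp. Among all 30000 regions the numbers were 272, 269 and 262. The class made up 276, 266 and 246 of the 1468 highest regions of replicates 2, 3 and 4. In every replicate 114 peaks were found (39.6%, where 43.0% of all IDR peaks were), in 2 replicates 97, in 1 replicate 65 and in none 12 (4.17%, where 4.16% of all were). Both shares are near those of all IDR peaks. The number found in every replicate fell to 68 at a sharing distance of 50 bp. By class rank, 46 of the first 50 peaks were found in every replicate, 40 of the next 50, 27 of the next 100 and 1 of the last 88. The strongest found in none were at K08E7.12 (157.4), F13D11.18 (145.5) and C04C11.8 (145.4). None of the 2510 other candidates was found among the 1468 highest of every replicate, 7 were found in 2 and 120 in 1.

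Features that the signal did not fix were compared between the 288 peaks and the 2510 other candidates by Fisher's exact test, two-sided, with Benjamini-Hochberg adjustment over 15 shares, of which 9 passed 0.05. The test takes each region as 1 draw, although some share a gene. Per replicate, the share among class regions within the 1468 highest was set against that among class regions below, which gives 3 pairs, each from 1 library. An exact permutation test that flips the sign of 3 paired differences cannot give a p under 0.25, so the replicate values are given as a description. Against only the 288 candidates of the class just below the threshold, 8 of the 9 shares no longer passed. That set is nearer in signal but also smaller than the 2510, and the effects of signal and of number on a lost call cannot be told apart here.

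Peaks of the class lay closer to their gene's 5′ end than weak candidates did. The summit was within 100 bp for 188 peaks (65.3%, exact 95% interval 59.5 to 70.8) and for 1101 other candidates (43.9%), an odds ratio of 2.41 (adjusted exact p = 4.6e-11). The rule bounded this distance at 500 bp for peaks and other candidates alike, so the comparison is of positions inside that window. In the replicates the share was 66.6% ± 0.584 (SD, n = 3) among the highest regions and 42.2% ± 0.932 among the rest, higher in 3 of 3. Within 49 bp the shares were 47.6% and 23.7%. The median position was 16 bp inside the gene, with quartiles of −36 and 70.75 bp, beside a median of 13 bp and quartiles of −113 and 124 bp for the others. The summit lay inside the noncoding gene for 141 peaks (49.0%) and 821 others (32.7%). A summit upstream of the 5′ end was less frequent among the peaks, with 114 (39.6%) against 1173 (46.7%; odds ratio 0.747, adjusted exact p = 0.0408). Against the candidates just below the threshold, the odds ratios were 1.46 for the summit within 100 bp (adjusted exact p = 0.102) and 0.986 for the summit upstream (adjusted exact p = 1). The call for the upstream summit was also lost with a window of 250 bp (adjusted exact p = 0.0638), against the lowest-signal candidates (0.0878), without regions near short RNA 5′ ends (0.149) and without noncoding genes over short RNA genes (0.123).

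**Figure D2:**
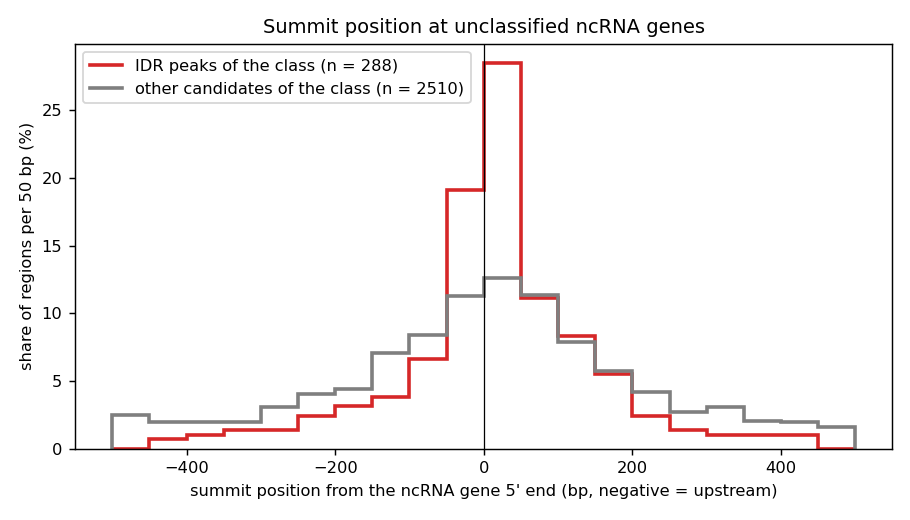
Position of the summit from the 5′ end of the noncoding RNA gene (bp, negative is upstream) in bins of 50 bp, as the share of regions (%), for the 288 IDR peaks of the class and the 2510 other candidates. The peaks rise to a narrow maximum just inside the gene around their median of 16 bp, while the others spread over the window.

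Genes of other short RNA families stood near many of the peaks. A tRNA, small nucleolar, small nuclear or microRNA 5′ end lay within 500 bp of 48 summits (16.7%, exact 95% interval 12.6 to 21.5) and of 4.02% of the others, an odds ratio of 4.77 (adjusted exact p = 4.8e-13). In the replicates the shares were 18.0% ± 1.85 and 4.28% ± 0.571 (SD, n = 3), higher in 3 of 3. Of the 9 shares this alone also passed against the candidates just below the threshold, where 19 of 288 had such a neighbour (odds ratio 2.83, adjusted exact p = 0.00343). Among all IDR peaks the share was 23.1%, and among all pooled candidates 2.85%.

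Many of these noncoding genes are annotated over tRNA genes. The noncoding gene overlapped a tRNA gene or tRNA pseudogene at 32 peaks (11.1%) and at 69 others (2.75%), on the opposite strand in every case. A ChIP summit has no strand, so at these places the signal cannot be assigned to the noncoding gene or to the tRNA gene. The strongest was T23F1.8, over the tRNA gene T23F1.t2, with a signal of 609.7, which ranked 28 in replicate 2 and 40 in replicate 3 and just missed the 100 highest regions of replicate 4. C04A2.11, over C04A2.t1, followed with 413.0 and ranks of 227, 111 and 87, and C18A11.13, over C18A11.t2 on X, had 353.7 and ranks of 262, 102 and 343. Of the 32 summits 28 were within 100 bp of the noncoding 5′ end, as were 33 of the 69 others. These peaks had a median signal of 211.9 and 21 of them (65.6%) were found in every replicate. In 4 further cases the noncoding gene overlapped a small nuclear RNA gene, in 2 a small nucleolar RNA gene and in 1 a microRNA gene.

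The B box word GGTTCGA lay within 50 bp of 18 summits (6.25%) and 30 others (1.20%), an odds ratio of 5.51 (adjusted exact p = 1.3e-06). It lay within 50 bp of 6.40% of all IDR and 1.47% of all pooled summits, so the share of the class is near that of all IDR peaks. In the replicates the shares were 6.48% ± 0.727 and 1.46% ± 0.213 (SD, n = 3). At 15 of the 18 peaks a tRNA gene overlapped the noncoding gene, and at 13 the word read on the strand opposite to the noncoding gene. The 3 peaks without such a tRNA gene were at F36H1.17, T27A3.12 and C18B12.9. Without noncoding genes that overlap a short RNA gene, an alternative chosen after seeing the data, the odds ratio was 1.47 (adjusted exact p = 0.54). It was 0.500 (adjusted exact p = 1) when regions within 500 bp of a short RNA 5′ end were left out, and 3.77 (adjusted exact p = 0.0675) against the candidates just below the threshold. The call for the B box word was thus lost under each of these 3 settings.

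Protein-coding promoters were the other frequent neighbour. A coding 5′ end lay within 500 bp of 80 summits (27.8%, exact 95% interval 22.7 to 33.3) and of 331 others (13.2%), an odds ratio of 2.53 (adjusted exact p = 4.1e-09). In the replicates the shares were 27.4% ± 1.46 and 12.9% ± 0.620 (SD, n = 3), higher in 3 of 3. The share was 40.8% among all IDR peaks, which include those assigned to coding genes. At 62 of the 80 the summit was upstream of the coding 5′ end, with a median position of −221 bp. Against the candidates just below the threshold the odds ratio was 1.67 (adjusted exact p = 0.0675). The median distance from the summit to the nearest coding 5′ end was 1222 bp for the peaks and 2226 bp for the others, and 160 peaks (55.6%) and 1852 others (73.8%) were more than 1000 bp away.

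The strand of the noncoding gene was then set against that of the coding gene with the nearest 5′ end, which was not always the coding gene that contained it. The most frequent arrangement among the peaks was head to head, with transcription running apart (100 peaks, 34.7%, beside 29.0% of the others). The 5′ ends could lie any distance apart, and at 41 of the 100 the coding one was within 500 bp of the summit. Next came a noncoding gene upstream on the same strand (92, 31.9%; 22.4%) and one inside the coding gene on the opposite strand (47, 16.3%; 25.3%). Only 10 were tail to tail. Where the coding 5′ end was within 500 bp, 41 of 80 pairs were head to head (51.2%, exact 95% interval 39.8 to 62.6), beside 170 of 331 (51.4%, 45.8 to 56.9; odds ratio 0.996, adjusted exact p = 1). After C14F11.14, the strongest of these were W01D2.7 (signal 521.2), F57B10.17 (469.5; ranks 61, 214 and 73; 27 bp upstream of tre-1, a trehalase gene), Y71H9A.9 (367.5) and C16C2.7 (347.0; ranks 314, 236 and 288; 255 bp upstream of eat-16). The gene C16C2.7 also lies inside the coding gene ocrl-1, on its strand, with the summit in an intron. A peak between head to head genes cannot be assigned to either of them by position alone.

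Some coding neighbours have well-known products, and those named here were picked after their values were seen and are not a full list. F26D10.23 lay upstream of the heat shock protein gene hsp-1 (signal 344.9; ranks 104, 211 and 397), F56F3.11 upstream of the ribosomal protein gene rps-1 (246.4; 496, 433 and 312) and R03G5.8 upstream of the elongation factor gene eef-1A.2 (230.3; 480, 407 and 404). Weaker peaks lay at rpl-1 (152.6), the linker histone gene his-24 (144.9), rpl-7 (133.8), rpl-11.2 (131.9) and rpl-36.A (128.7).

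Peaks of the class were less often inside coding genes than weak candidates. The noncoding gene lay wholly inside a coding gene for 84 peaks (29.2%, exact 95% interval 24.0 to 34.8) and 1221 others (48.6%), an odds ratio of 0.435 (adjusted exact p = 1.1e-09). In the replicates the shares were 31.4% ± 2.77 and 47.1% ± 0.855 (SD, n = 3), lower in 3 of 3. Summits lay in a coding exon for 17 peaks (5.90%) and 334 others (13.3%; odds ratio 0.409, adjusted exact p = 0.000327), beside 7.08% of all IDR peaks and 36.5% of all pooled candidates. The exon share of the class is thus near that of all IDR peaks. Summits lay in an intron for 73 (25.3%) and 906 (36.1%), and outside coding genes for 198 (68.8%) and 1270 (50.6%). The exon share was 6.45% ± 0.688 among the highest regions of the replicates and 14.2% ± 1.68 among the rest. Against the candidates just below the threshold the odds ratios were 0.676 (adjusted exact p = 0.102) for lying inside a coding gene and 1.14 (adjusted exact p = 1) for the exon, which turned its direction. Among noncoding genes inside a coding gene on a single strand, 61 of 84 were antisense to it (72.6%, exact 95% interval 61.8 to 81.8), beside 853 of 1209 (70.6%, 67.9 to 73.1; odds ratio 1.11, adjusted exact p = 0.862). After rpr-1, the strongest antisense peaks in introns were F16A11.7 in ppfr-1 (475.7, with ranks of 67, 89 and 132), srpr-2.2, C04A2.11 and T24B8.22 (380.2). Another noncoding gene named F16A11.7 has the same span on the strand of ppfr-1, and a separate peak (351.0) was assigned to it. A summit has no strand, so the strand given is that of the noncoding gene with the nearer 5′ end.

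**Figure D3:**
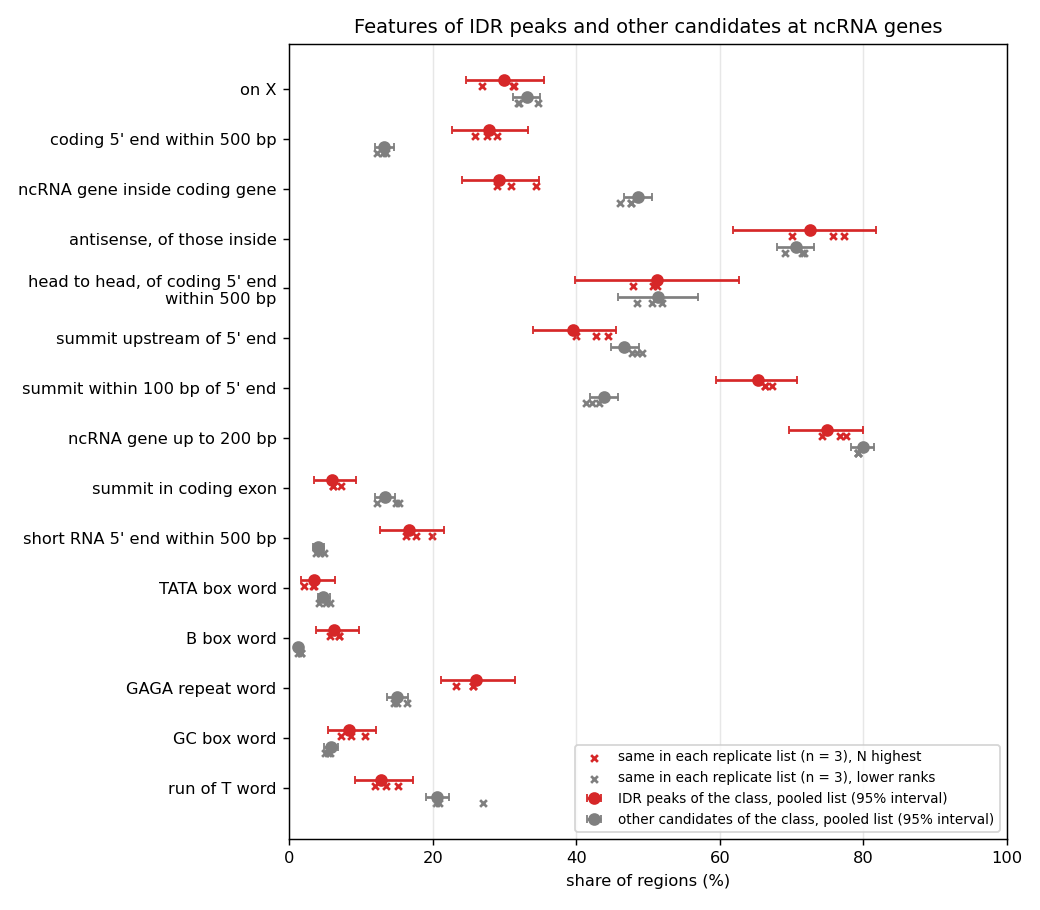
Shares of regions (%) with each of the 15 features, for the 288 IDR peaks and the 2510 other candidates of the class in the pooled list (points, with exact 95% intervals) and for each of the 3 replicates (crosses), where the red crosses are class regions among the 1468 highest and the grey ones class regions of lower rank. The widest gaps are for a summit within 100 bp of the 5′ end (65.3% and 43.9%) and a noncoding gene inside a coding gene (29.2% and 48.6%).

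The X chromosome held 86 of the 288 peaks (29.9%, exact 95% interval 24.6 to 35.5) and 830 of the others (33.1%; odds ratio 0.862, adjusted exact p = 0.361). The difference did not pass the test, and in the replicates the shares were 29.8% ± 2.56 and 32.8% ± 1.65 (SD, n = 3), lower in 3 of 3. Of all annotated genes of the biotype 32.5% are on X, while 24.0% of all IDR peaks and 16.9% of all pooled candidates are. The share of the peaks on X was thus between that of all IDR peaks and that of the annotated genes, and its interval includes the share of the annotated genes. Of the X peaks 38 of 86 were found in every replicate (44.2%), beside 76 of 202 autosomal ones (37.6%), and the median signals were 180.0 and 173.9. The 5 strongest on X were C14F11.14, F52D10.7, T13H2.9 (470.5; ranks 105, 85 and 119; 543 bp from spat-3), Y71H9A.9 and F13D11.9.

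Gene length did not separate the groups past the threshold. Genes up to 200 bp made up 216 of the 288 (75%) and 2007 of the others (80.0%; odds ratio 0.752, adjusted exact p = 0.0811), with 76.2% ± 1.74 and 79.2% ± 0.0191 (SD, n = 3) in the replicates, lower in 3 of 3. The median lengths were 144 and 143 bp. The longest gene with a peak spans 14770 bp.

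Sequence at the summits differed from that of the other candidates in more than the B box word. For G and C content, GAGAGA and TTTTTT, the values of the class were near those of all IDR peaks. The peaks were richer in G and C, with a median of 52.5% within 50 bp of the summit, beside 45.5% for the others, 51.5% for all IDR peaks and 44.6% for all pooled candidates. GAGAGA, sought like each word on both strands within 50 bp of the summit, was found at 75 peaks (26.0%) and 377 others (15%), an odds ratio of 1.99 (adjusted exact p = 1.5e-05), with 24.8% ± 1.38 and 15.3% ± 0.95 (SD, n = 3) in the replicates. Among all IDR peaks the share was 24.1% and among all pooled candidates 10.4%. TTTTTT was less frequent at the peaks, with 37 (12.8%) against 517 (20.6%; odds ratio 0.568, adjusted exact p = 0.00251), and 13.6% and 20.6% of all IDR and pooled summits held it. Against the candidates just below the threshold the odds ratios were 0.932 for GAGAGA and 1.03 for TTTTTT (adjusted exact p = 1 for both), so both turned their direction. For TTTTTT the odds ratio did not pass without replicate 3 (0.812, adjusted exact p = 0.61) or without replicate 4 (0.602, adjusted exact p = 0.0589), where the peaks are those found in both other replicates. Base composition and the frequency of these words move together, and its part in the result was not tested.

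TATAAA was found at 10 peaks (3.47%) and 119 others (4.74%; odds ratio 0.723, adjusted exact p = 0.434), with 3.54% and 4.78% among all IDR and pooled summits. GGGCGG was found at 24 (8.33%) and 144 (5.74%; odds ratio 1.49, adjusted exact p = 0.12), with 8.72% and 4.32% among all. Neither difference passed the test, although in the replicates TATAAA was lower in 3 of 3 (2.89% ± 0.747 and 4.97% ± 0.822, SD, n = 3) and GGGCGG higher in 3 of 3 (8.73% ± 1.69 and 5.34% ± 0.402, SD, n = 3). Upstream of the gene, from 40 to 15 bp before the 5′ end and on its strand, TATAAA was present at 5 of the 278 genes with a peak (1.80%, exact 95% interval 0.587 to 4.15), beside 25 of 2182 genes of the other candidates (1.15%) and 105 of 7764 annotated genes (1.35%). Among the 5 are mrpr-1, T06H11.17 (signal 334.6) and C30E1.9 (295.3), with the first base of the word 30, 33 and 31 bases upstream. This window was set after the sequences had been seen, and the counts carry no test.

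ACACAC was counted after the strongest windows had been read, so its numbers too are a description. It lay within 50 bp of 69 peaks (24.0%), 219 others (8.73%), 258 of all IDR peaks (17.6%) and 2027 of all pooled candidates (6.76%). It was at 28 of the 86 X peaks (32.6%) and 41 of the 202 autosomal ones (20.3%), while 9.04% and 8.57% of the other candidates on X and on the autosomes held it. None of the 32 peaks over tRNA genes held it, and 1 of them held GAGAGA. Of the 169 peaks with neither a short RNA gene nor a coding 5′ end nearby, 43 held ACACAC and 55 held GAGAGA.

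Sorted by what else lay at the peak, the class fell into 4 kinds. In 32 the noncoding gene overlapped a tRNA gene, and in 18 another short RNA gene was near. In 69 a coding 5′ end but no short RNA gene was near, and in 169 (58.7%, against 83.0% of the others) neither was. Each peak was counted once in this order, so 11 peaks with both neighbours are among the short RNA kinds. The 169 peaks with neither neighbour, of which 118 lay outside coding genes, had the lowest median signal, 159.9, and 48 of them (28.4%) were found in every replicate. The median was 183.9 at the 69 peaks with a coding 5′ end and no short RNA gene, of which 35 (50.7%) were found in every replicate. At the 18 with another short RNA gene it was 214.2, and 10 of them were found in every replicate. These medians are descriptions of a signal that chose the peaks. The kind with neither neighbour still held strong peaks, up to 650.1 at rpr-1 in its intron of ints-8. F16A11.7, F52D10.7, T13H2.9, srpr-2.2, T24B8.22 and K10H10.11 were among those found in every replicate. Of these, F52D10.7, T13H2.9 and T24B8.22 lay 514, 543 and 628 bp from a coding 5′ end, not far past the limit of 500 bp.

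**Figure D4:**
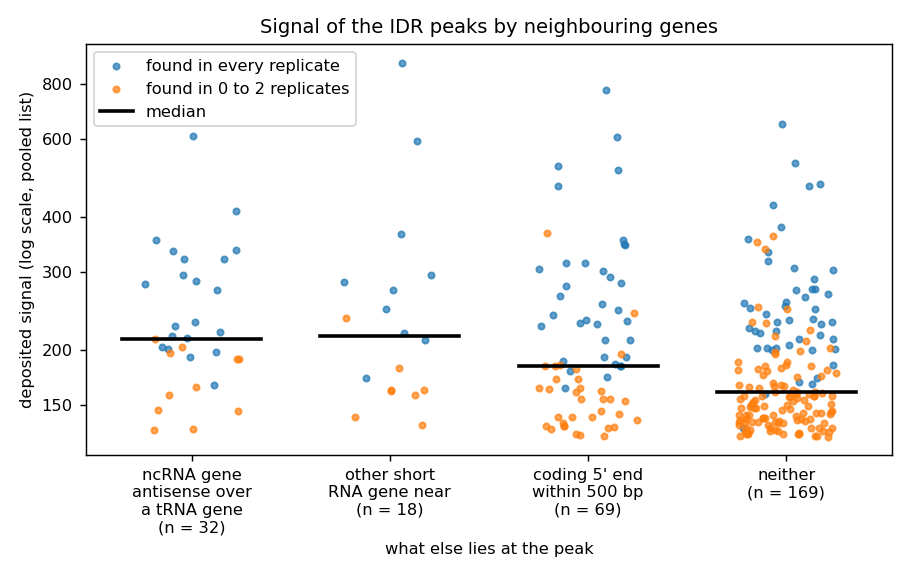
Deposited signal of the 288 IDR peaks of the class (log scale) by what else lies at the peak, with each point 1 peak and the bar the median. Each peak is shown once, with short RNA genes taken before coding 5′ ends. Blue points were found among the 1468 highest regions of every replicate and orange points in 0 to 2 replicates. Peaks with neither neighbour have the lowest median (159.9) but reach 650.1.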

How the data were processed

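The authors deposited 5 lists of regions, each with a signal value and a −log10 q-value per region as their caller gave them. All are on build ce11, per the deposited README texts, which trace a replicate's list to its alignment with 2 control files, the pooled list to the 3 alignments, and the IDR list to the others. Not given in the sources used here are the caller, its version, the IDR threshold, the kind of control and the scale of the signal. The signal ranked regions within a list, and the q-value was not used.

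Summits, counted from 1, were assigned to the nearest gene 5′ end of Ensembl release 115 (WBcel235, the assembly that ce11 names) within 500 bp, and symbols came from RefSeq by WormBase identifier for all 278 genes. A region was found in a replicate when a summit lay within 100 bp among that replicate's 1468 highest regions. Words were sought on both strands up to 50 bp from a summit. Fisher's exact test compared shares, which have Clopper-Pearson 95% intervals, in Python 3.11.15 with scipy 1.17.1, numpy 2.4.6 and pandas 2.3.3, and figures were drawn with matplotlib 3.10.9. Intervals cover only the counting of regions, since depth is unknown, and p-values treat each region as 1 draw and not each sample. The assignment of summits to genes, their offsets and Fisher's exact test were tested on simulated data, and the other steps were not.

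The members, the features and the lists were chosen with earlier results of these data known. The named genes are the 20 strongest peaks found in every replicate, the 5 strongest outside coding genes with no coding 5′ end near, on X, antisense inside a coding gene and head to head within 500 bp, the 3 lowest peaks, the 3 highest candidates left out, the 3 strongest found in no replicate and the genes with a locus name. The peaks by B box word, TATA box position, tRNA overlap and coding neighbour were named after their values were seen. Alternatives covered the window, the comparison set, the sharing distance, the number of regions, the flank for words, 1 region per gene, short RNA neighbours and leaving out each replicate, which keeps the peaks found in both others.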

Additional observations from a re-analysis of the deposited data

How the results depend on the processing

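No paired analysis was possible because the labels give 1 group, so no groups share replicate numbers. The odds ratio for a short RNA 5′ end within 500 bp stayed past the threshold in all settings that could be run for it, from 2.83 to 8.52. In the settings below the cause of a change was not tested. With a window of 250 bp, the odds ratio was 0.747 for the upstream summit (adjusted exact p = 0.0638), 0.585 for the exon (adjusted exact p = 0.0769) and 0.999 for antisense, and with 1000 bp it was 0.728 for genes up to 200 bp, now past the threshold. Against the 288 lowest-signal candidates of the class it was 1.40 for head to head, 0.722 for the upstream summit (no longer past), 0.585 for genes up to 200 bp and 3.18 for GGGCGG (both now past). Against the 288 candidates just below the threshold, calls were lost at 1.67 for the coding 5′ end, 0.676 for lying inside a coding gene, 0.986 for the upstream summit, 1.46 for within 100 bp and 3.77 for GGTTCGA, and the direction turned at 1.14 for the exon, 0.932 for GAGAGA, 0.782 for GGGCGG and 1.03 for TTTTTT. With peaks found in every replicate (114 of 288) it was 1.01 for X and 0.676 for TTTTTT, and with the higher-signal part 0.849 for TTTTTT. Leaving out 1 replicate gave 0.947 to 1.07 for X, 0.986 to 1.85 for antisense, 0.987 to 1.03 for head to head and 0.547 to 0.812 for TTTTTT. Without regions near short RNA 5′ ends it was 0.788 for the upstream summit, 0.646 for genes up to 200 bp (now past) and 0.500 for GGTTCGA. With 100 bp each side, TATAAA (0.508) and GGGCGG (1.74) passed. Without noncoding genes over a short RNA gene, chosen after seeing the data, it was 0.783 for the upstream summit, 0.667 for genes up to 200 bp and 0.337 for TATAAA (both now past), and 1.47 for GGTTCGA. The number of peaks found in every replicate was 68 at 50 bp, 138 at 200 bp and 160 with 2936 regions per replicate. With 1 region per noncoding gene no call changed. The unknown depth limits every statement on regions near the threshold.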
